A study of Schizosaccharomyces pombe with 3 samples.

Results

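Ammonium uptake genes and genes first known from nitrogen starvation were followed in the fission yeast Schizosaccharomyces pombe. The set was chosen by name and held 7 genes: the ammonium transporter genes amt1, amt2 and amt3, the nitrogen starvation genes isp6 and isp7, the protease gene psp3 and the urea transporter gene dur3-1. Of these, 6 carried their name in the array's annotation and were measured, out of 2899 named genes on the array. No probe set carried the name dur3-1, which was not analysed here. Each of the 6 had 1 probe set, and none of these was of the types marked as able to hybridize to several transcripts.

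The data were 3 Affymetrix arrays of total RNA, 1 for each of 3 cultures. The adapted culture was an h- strain (SpHT257-1) in which kanMX4 stood in place of eca39, whose product is the aminotransferase for branched-chain amino acids. It had been taken from a plate of EMM2-N medium with 15 mM glutamate and 2 mM each of isoleucine, leucine and valine, where it had grown beside wild-type cells. The unadapted deletion culture was the same strain taken from a plate of rich YE medium, and the wild-type culture was a prototrophic h- strain (SpHT219), also from a YE plate. The YE plates likewise held 2 mM of each of these amino acids. All 3 cultures were then grown in liquid YE with 2 mM of the same 3 amino acids, starting at an optical density near 0.1 and harvested near 1, so rich medium and the added amino acids were common to all of them. Adaptation and the history on the plate cannot be told apart. The eca39 probe set read 6.37 in the adapted culture and 6.12 in the unadapted deletion culture, against 14.60 in wild type, on the log2 scale of the deposited values.

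Fission yeast takes up ammonium through transporters of the Amt/Mep/Rh family, and fixes it by way of glutamate and glutamine. When nitrogen runs short, signalling through TOR complex 1 falls, and the GATA factor Gaf1 is known to turn on genes for transporters and for the use of other nitrogen sources. Cells then also degrade their own proteins in the vacuole, and mating-competent cells enter sexual development. The isp genes take their name from a screen for transcripts induced in that development.

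With 1 array per culture, no spread between replicates could be had and no test was made, and the small number of arrays bounds how precise any value can be. A gene was said to rise or fall when its log2 values on 2 arrays differed by at least 1, which is 2-fold, and the brighter of them reached 9.82, the 30th percentile of all values. That value is called the brightness limit below. All 3 arrays had medians between 10.64 and 10.69. Of the 6 measured genes, 5 reached the brightness limit on all 3 arrays and amt3 reached it on none. Values were taken from whole cultures, in which a change in the share of cells that express a gene and a change in its RNA per cell cannot be told apart.

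All 6 genes read higher in the deletion culture than in wild type, and 1 of them, isp6, rose by the size rule. Their log2 differences ran from 0.20 to 1.03 with a median of 0.67, while the median over all 4981 features on the array was 0. Differences above 0 were found for 45.9% of all features. Of the 5 genes at the brightness limit, 1 rose and 0 fell, against 2.3% of features at the limit that rose and 0.0841% that fell. At a lower threshold of 1.5-fold, 3 of the 5 passed, namely isp6, amt1 and isp7, against a background of 5.52%. The set was chosen with earlier results of these data known, so these shares describe it and are no test of it.

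**Figure D1:**
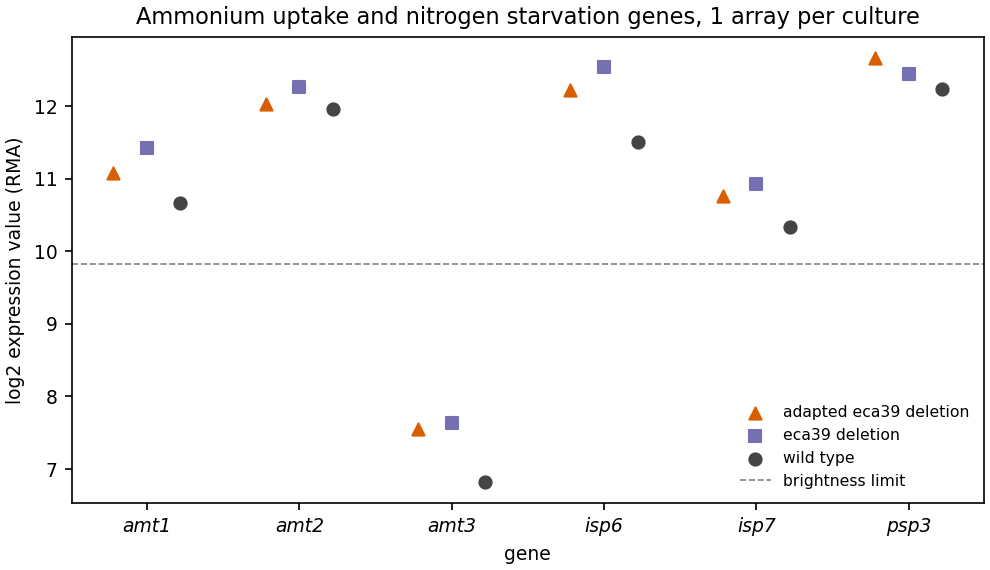
Log2 expression values (vertical axis) of the 6 measured genes (horizontal axis) in the adapted eca39 deletion, the eca39 deletion and the wild-type culture, 1 point for each array, with the brightness limit of 9.82 as a dashed line. Wild type is the lowest point for each of the 6 genes, the deletion culture is the highest for all but psp3, and amt3 lies below the line in all 3 cultures.

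The amt genes encode the membrane proteins that carry ammonium into the cell. For amt1 (SPCPB1C11.01, on chromosome III) the log2 values were 11.07 in the adapted culture and 11.43 in the deletion culture, against 10.66 in wild type. The deletion culture thus stood highest and wild type lowest, with the adapted culture between them. The deletion culture exceeded wild type by 0.76, a 1.70-fold higher signal, and 239 of the 4981 features differed more in that direction. The adapted culture exceeded wild type by 0.41, or 1.33-fold, and neither difference passed the size rule. In terms of position within each array, amt1 stood at the 59.2nd percentile in the adapted culture and the 67.7th in the deletion culture, against the 50.6th in wild type.

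The second transporter gene, amt2 (SPAC664.14, on chromosome I), read 12.03 in the adapted culture and 12.26 in the deletion culture, against 11.97 in wild type. Its difference from wild type was 0.060 in the adapted culture, or 1.04-fold, and 0.30 in the deletion culture, or 1.23-fold. The adapted and the wild-type readings of amt2 were therefore close together, and the smallest difference from wild type among the 6 genes was this one. In the adapted culture 43.6% of all features differed more from wild type in the same direction.

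The third, amt3 (SPAC2E1P3.02C, on chromosome I), was dim, with 7.55 in the adapted culture and 7.64 in the deletion culture, against 6.83 in wild type. Both mutant cultures lay close together and above wild type, with differences of 0.72 from it in the adapted and 0.81 in the unadapted mutant. All 3 readings fell below the 10th percentile of the table, 7.92, and so below the brightness limit, and the size rule could not call this gene. Dim features as a class read lower on the wild-type array. Features below the limit on both arrays had a median difference from wild type of 0.12 in the adapted culture (1393 features) and 0.095 in the deletion culture (1412 features). The part of this trend in the reading of amt3 was not tested as such, but when quantile normalization was repeated the differences of amt3 became 0.24 in the adapted and 0.43 in the unadapted mutant. After a smooth trend over brightness was removed they became 0.53 and 0.63, in the same order.

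**Figure D2:**
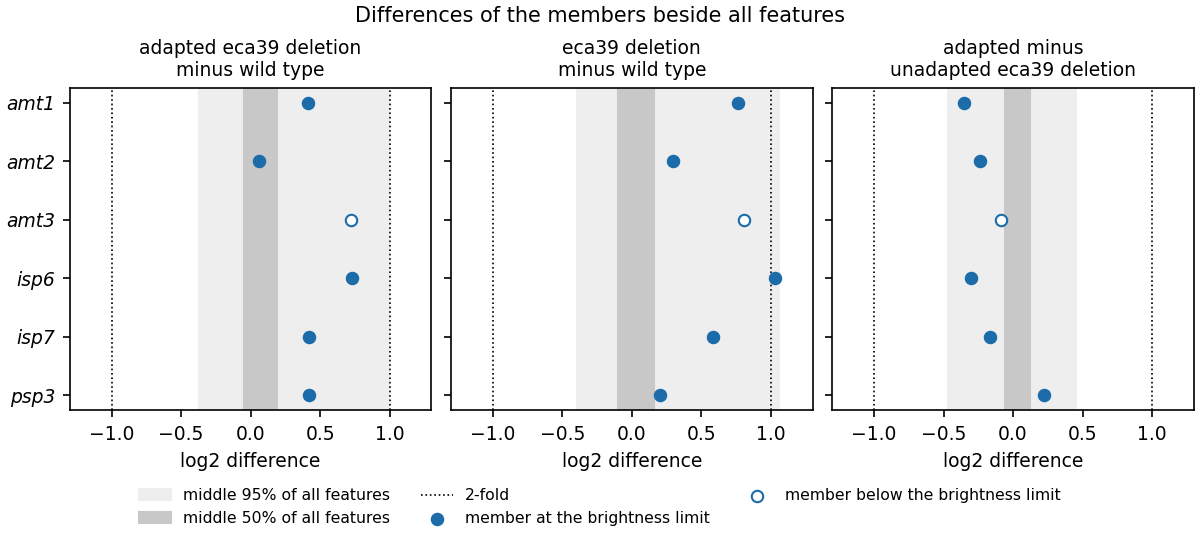
Log2 differences (horizontal axes) of the 6 genes (rows) for the adapted eca39 deletion minus wild type, the eca39 deletion minus wild type, and the adapted minus the unadapted deletion, with grey bands for the middle 50% and 95% of all 4981 features and dotted lines at 2-fold. The point of isp6 lies past the 2-fold line in the panel of the eca39 deletion minus wild type, at 1.03, and the other points lie inside the lines.

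Of the genes for protein breakdown, isp6 changed most. It encodes a vacuolar serine protease of the subtilisin family, named prb1 as a synonym, that is known to be needed for the degradation of proteins during nitrogen starvation. The values of isp6 (SPAC4A8.04, on chromosome I) were 12.23 in the adapted culture and 12.53 in the deletion culture, against 11.50 in wild type. It rose 2.05-fold in the deletion culture, with a log2 difference of 1.03, and 133 of all features differed more in that direction. The difference lay close to the threshold of 1, and it became 0.98, short of it, when each array was centred on its median. In the adapted culture isp6 was 1.66-fold above wild type, a difference of 0.73 that did not pass the size rule. Within the arrays it stood at the 80.1st percentile in the adapted culture and the 84.2nd in the deletion culture, against the 69.0th in wild type.

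The second protease gene, psp3 (SPAC1006.01, on chromosome I), encodes another serine protease of the subtilisin family. It read 12.66 in the adapted culture and 12.44 in the deletion culture, against 12.24 in wild type. Here the adapted culture stood highest, with a difference from wild type of 0.42, or 1.34-fold, while that of the deletion culture was 0.20, or 1.15-fold. The order of the mutant cultures was thus opposite to that of isp6, although the psp3 differences passed no threshold in any comparison.

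The gene isp7 (SPAC25B8.13C, on chromosome I) encodes an oxygenase of the 2-oxoglutarate- and iron-dependent type and is known as a regulator of amino acid permease genes that acts with TOR signalling. It read 10.76 in the adapted culture and 10.93 in the deletion culture, against 10.34 in wild type. The deletion culture again stood highest and wild type lowest. Its difference from wild type was 0.42 in the adapted culture, or 1.34-fold, and 0.59 in the deletion culture. The second lay at the edge of the 1.5-fold threshold, and 361 features differed more in the deletion culture.

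The adapted culture was nearer to wild type than the deletion culture for all of these genes except psp3, and none of them rose or fell between it and wild type. The 6 differences from wild type ran from 0.060 to 0.73, with a median of 0.42, beside a median of 0.027 over all features. All 6 lay above 0, as did 56.1% of all features. Among features at the brightness limit 1.48% rose and 0.223% fell, and at 1.5-fold 1 of the 5 genes at the limit, isp6, passed, against 3.62%. Both comparisons with wild type share the wild-type array, so their values are not independent of each other.

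Set directly against the unadapted deletion culture, the adapted culture read lower for 5 of the 6 genes, while 36.3% of all features had differences below 0. The log2 differences were -0.35 for amt1, -0.30 for isp6, -0.24 for amt2, -0.16 for isp7 and -0.089 for amt3, with psp3 apart at 0.22. Their median was -0.20, beside 0.0029 over all features. None of the 6 rose or fell, where 0.194% of features at the limit rose and 0.471% fell, and none passed 1.5-fold in either direction, where 0.665% rose and 1.52% fell. For amt1, whose difference was the lowest of the 6, 215 of all features read lower still.

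**Figure D3:**
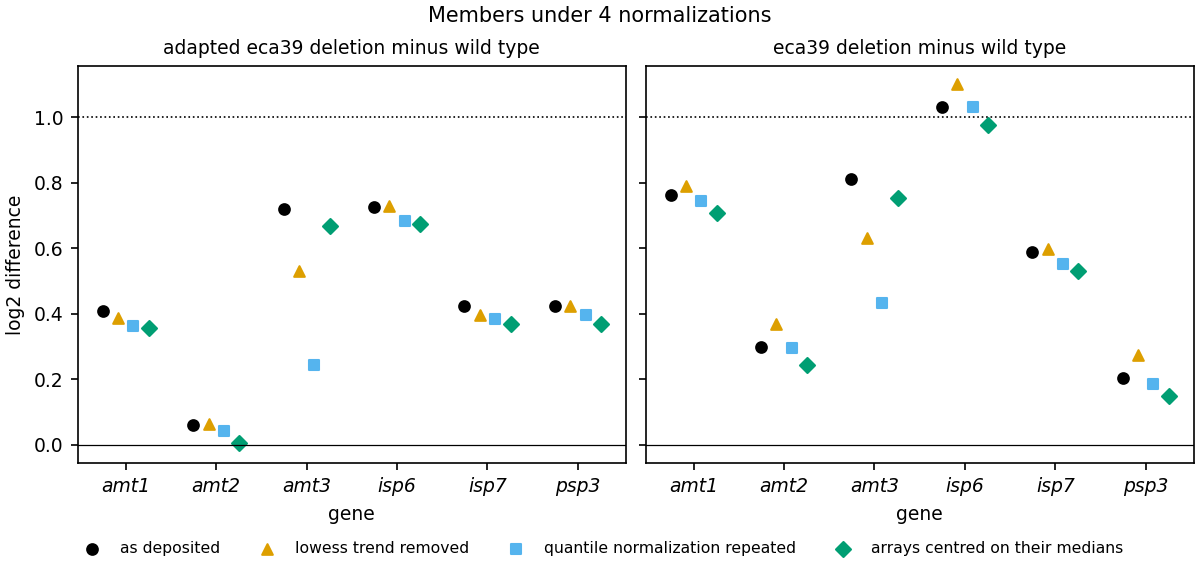
Log2 differences from wild type (vertical axis) of the 6 genes (horizontal axis) in the adapted eca39 deletion and the eca39 deletion culture, under 4 normalizations of the same arrays, with a dotted line at 2-fold. In the deletion culture isp6 moves between 0.98 and 1.10, across the line, and amt3 moves most, between 0.43 and 0.81.

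Genes that act after uptake were read from lists of related function. Ammonium assimilation was measured for all 5 listed genes. Of these 1 rose in the adapted culture and 1 in the deletion culture, in both cases gdh2. Among all features at the limit 1.48% rose in the adapted and 2.3% in the deletion culture. The list's median difference from wild type was 0.36 in the adapted culture, beside 0.027 over all features, and 0.51 in the deletion culture, beside 0. The gene gdh2 encodes the NAD-dependent glutamate dehydrogenase, which releases ammonium from glutamate. It read 13.43 in the adapted culture and 14.12 in the deletion culture, against 11.19 in wild type, and was 4.74-fold and 7.64-fold above wild type in these mutant cultures. For asn1, which encodes asparagine synthetase, the differences from wild type were 0.45 in the adapted and 0.62 in the unadapted mutant. Those of gdh1, the gene of the NADP-dependent enzyme that fixes ammonium, were 0.36 and 0.51 in the same cultures. Between the adapted and the unadapted deletion culture all 5 lay below 0, as did 36.3% of all features. Their differences ran from -0.69 to -0.014, with a median of -0.16, beside 0.0029 over all features, and none passed 2-fold.

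Transporters of other nitrogen compounds were measured for 10 of 14 listed genes. Of these, 8 reached the brightness limit, and 1 gene, the amino acid permease gene per1, rose in each mutant culture. Among all features at the limit 1.48% rose in the adapted and 2.3% in the unadapted mutant. The list's medians were 0.35 in the adapted and 0.34 in the unadapted mutant, beside 0.027 and 0 over all features. The signal of per1 was 2.88-fold above wild type in the adapted culture and 3.62-fold in the deletion culture. The proline permease gene put4 and the basic amino acid permease gene cat1 took opposite orders. For put4 the differences from wild type were 0.86 in the adapted and 0.30 in the unadapted mutant, and for cat1 they were 0.12 and 0.65. In the list for the breakdown of urea and purines, 3 of 13 listed genes were measured, and only 2 of them reached the brightness limit. None rose or fell, where 1.48% of all features at the limit rose in the adapted and 2.3% in the unadapted mutant. One of the 3 measured genes, uap1, may not belong there, since its role was not certain, so no median is given. It stood at 0.25 in the adapted and -0.19 in the unadapted mutant, and the urease gene ure2 at 0.074 and 0.16.

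All 5 isp genes of the list were measured, isp6 and isp7 among them, and 3 of the 5 reached the brightness limit. The list's medians were 0.73 in the adapted and 0.74 in the unadapted mutant, beside 0.027 and 0 over all features. They became 0.44 and 0.55 under repeated quantile normalization. The only gene of the list that rose was isp6, in the deletion culture, against 2.3% of features at the limit. The oligopeptide transporter gene isp4 read 12.58 in the adapted culture and 12.08 in the deletion culture, against 12.25 in wild type, so that it was the one isp gene below wild type in the deletion culture. Below the brightness limit on all arrays, isp5 differed from wild type by 1.85 in the adapted culture and isp3 by 1.19 in the deletion culture, and the rule could call neither.

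**Figure D4:**
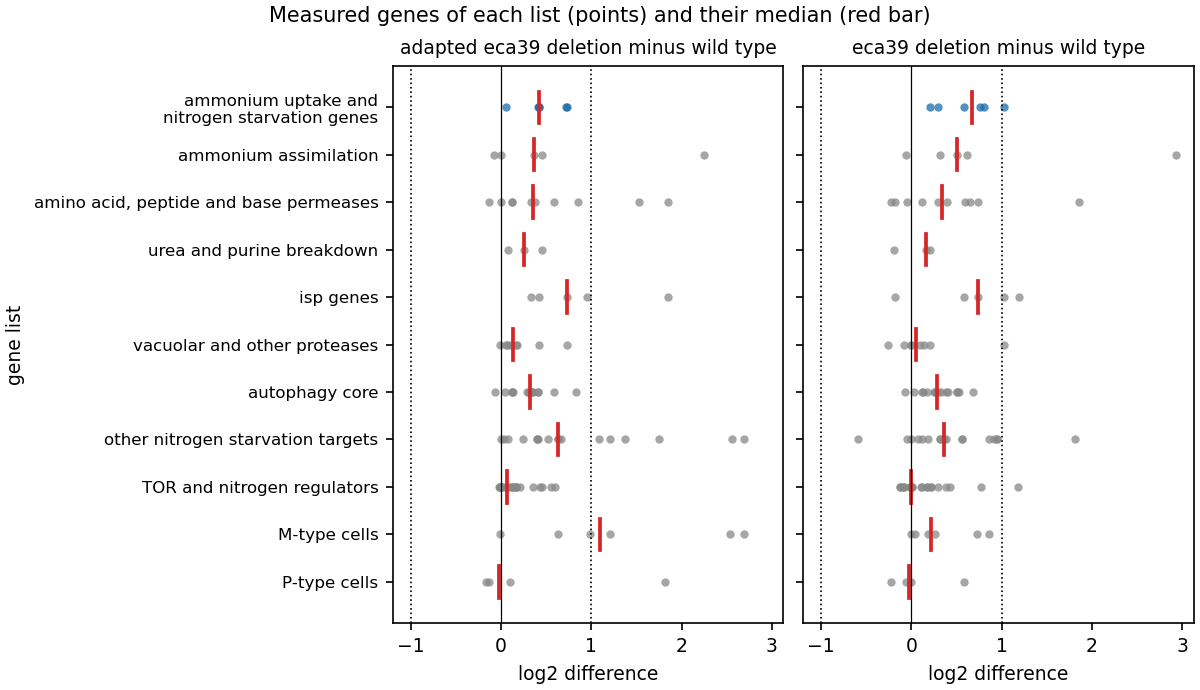
Log2 differences (horizontal axes) of every measured gene (points) in the set of 6 and in 10 lists (rows), for the adapted eca39 deletion minus wild type and the eca39 deletion minus wild type, with each list's median as a red bar and dotted lines at 2-fold. The set of 6 has medians of 0.42 in the adapted and 0.67 in the unadapted mutant, and the median of the TOR and nitrogen regulators lies at 0.065 and 0.

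Most other protease genes read close to wild type. Of 13 listed protease genes 8 were measured, isp6 and psp3 among them, and the medians were 0.13 in the adapted and 0.048 in the unadapted mutant. The rise of isp6 in the deletion culture was the only call in this list, where 2.3% of all features at the limit rose. The differences from wild type of the aminopeptidase gene ape2 were 0.17 in the adapted and 0.14 in the unadapted mutant. Those of ape4 were 0.18 and -0.086, and those of yps1 0.063 and -0.26. Autophagy genes, measured for 16 of 25, had 15 members above 0 in each mutant culture, against 56.1% of all features in the adapted and 45.9% in the unadapted mutant, and no call. Their medians were 0.32 in the adapted and 0.29 in the unadapted mutant, and became 0.11 and 0.14 under repeated quantile normalization. Only 6 of the 16 reached the brightness limit in those comparisons. Among these were atg8, the gene of the ubiquitin-like protein of autophagosome membranes (0.41 in the adapted and 0.33 in the unadapted mutant), the vacuolar lipase gene atg15 (0.34 and 0.25) and the kinase gene atg1 (0.12 and 0.12).

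Regulators of nitrogen signalling were measured for 28 of 34 listed genes, with medians of 0.065 in the adapted and 0 in the unadapted mutant. The GATA factor gene gaf1 read 10.77 in the adapted culture and 10.68 in the deletion culture, against 10.78 in wild type. For tor2, the kinase gene of TOR complex 1, and for tsc2, which encodes a restraint on that complex, both differences from wild type were 0. Differences of exactly 0, which the summary of probe sets can return, were found for 451 of all 4981 features in the adapted and 561 in the unadapted mutant. Of the 24 listed genes at the brightness limit, 1 rose, in the deletion culture, where 2.3% of all features at the limit rose. This was gcn2, which encodes a kinase of eIF2 that is active in amino acid shortage. It read 11.12 in the adapted culture and 11.74 in the deletion culture, against 10.56 in wild type, and was 2.27-fold above wild type in the deletion culture. The kinase gene ppk18 and the gene of its target igo1, which act below TOR, had differences from wild type of 0.59 and 0.067 in the adapted culture, and of 0.77 and 0.43 in the deletion culture.

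Nitrogen starvation is known to induce a wider range of genes, some of them for sexual development. Of 17 listed starvation targets other than the set above, all were measured. The list's median was 0.63 in the adapted and 0.36 in the unadapted mutant, beside 0.027 and 0 over all features. Under repeated quantile normalization these medians of the list became 0.43 and 0.23. Of the 17 genes, 8 reached the brightness limit in each comparison with wild type. In the adapted culture 3 of the 8 rose, against 1.48% of features at the limit. In the deletion culture 1 rose, against 2.3%. The gene mmf2, of the RidA family, rose in both, by 1.75 and 1.81 on the log2 scale, and was called in neither once that limit was raised to the 50th percentile. The meiotic regulator gene mei2 read 11.72 in the adapted culture and 10.11 in the deletion culture, against 9.16 in wild type. For ste11, the transcription factor gene of sexual development, the values were 11.99 in the adapted culture and 10.93 in the deletion culture, against 10.62 in wild type. Both genes rose between the adapted and the unadapted deletion culture, by 1.61 and 1.06, in which comparison 5 of the 6 genes of the set read lower. They were 2 of the 8 listed genes at the limit, where 0.194% of all features at the limit rose. The difference of ste11 lay just inside the 2-fold threshold. In that comparison 13 of the 17 listed genes lay above 0 and 4 below, where 50.8% of all features lay above 0. The list's median was 0.16, beside 0.0029 over all features. Among its dim genes, mfm1 stood at 1.83, mam2 at 1.03, ste6 at 0.99 and rep1 at 0.52. The dim ste4 and tms1 stood at 0.24 and 0.11. Below 0 were the dim inv1 at -0.54, fbp1 at -0.29 and zym1 at -0.24.

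The labelled mating type, h-, was checked against mating genes. The lists gave a mixed reading of it. Of the 6 M-type genes measured, mfm2, a gene of the M-factor pheromone, read 13.30 in the adapted culture and 12.35 in the deletion culture, against 12.31 in wild type. In the same order mfm3 read 10.01, 8.21 and 7.47. Below the brightness limit on all arrays lay mfm1, at 9.28, 7.46 and 6.59. So did mam2, of the M-type list, at 9.49, 8.46 and 8.28, and sxa2 at 8.99, 9.01 and 9.01. Of the P-type list, the receptor gene map3 and the pheromone gene map2 read at most 8.38 and 7.42 on any array, but sxa1 read 13.05 in the adapted culture and 12.96 in the deletion culture, against 12.96 in wild type. The M-type list had a median difference from wild type of 1.10 in the adapted culture, where mfm3 rose by 2.54 and mfm2 and mam1 stood at 0.98 and 0.63. The dim mfm1 stood at 2.69 in that culture, mam2 at 1.21 and sxa2 at -0.015. No other gene of the list was called there, and 1.48% of all features at the limit rose. The call of mfm3 was lost once the limit was raised to the 50th percentile, and without a limit 3 of the list passed. In the deletion culture its median was 0.22 and no gene of it rose or fell. The 4 P-type genes measured, of 5 listed, had medians of -0.018 and -0.029 and none rose or fell. The regulator gene map1, below the brightness limit, stood at 1.81 in the adapted and 0.59 in the unadapted mutant, and the difference of sxa1 was 0.10 and 0. The near-identical mfm genes may share probes.

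Genes with the closest pattern were sought for the 4 genes that differed from wild type at least 1.5-fold in a mutant culture. Likeness was the Euclidean distance between the pairs of log2 differences from wild type in the 2 mutant cultures, which share the wild-type array, over the other named genes at the brightness limit (2162 for isp6). For isp6 the closest were the citrate synthase gene cit1 (distance 0.018) and the arginine synthesis genes arg4 (0.023) and arg5 (0.056). For amt1 they were the lysine synthesis gene lys1 (0.010), the tubulin cofactor gene alp21 (0.032) and the ubiquitin-conjugating enzyme gene ubc8 (0.068). The genes closest to amt3 were the purine synthesis gene ade7 (0.032), the arginine synthesis gene arg12 (0.074) and the uracil-regulated gene urg3 (0.085). Because amt3 was dim, its differences of 0.72 in the adapted and 0.81 in the unadapted mutant depended on the processing. Repeated quantile normalization gave 0.24 and 0.43, and closest genes were not sought again there. For isp7 the closest were the pyruvate carboxylase gene pyr1 (0.0046), the RidA family gene mmf1 (0.017) and isd11, a gene for iron-sulfur cluster assembly (0.034). With only 2 values behind each distance, a close match describes these arrays and no more.

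Of the 6 genes, 5 are on chromosome I and amt1 is on chromosome III. The nearest protein-coding genes with a name on the array, by gene order in assembly ASM294v3, were read on either side of each. Up to 9 genes without such a name lay between, the most between mss51 and isp7, with 5 between amt1 and tpx1 and 3 between ams1 and amt3. On either side of isp6, ptc4 and myp2 had differences from wild type of -0.051 and -0.022 in the deletion culture, where isp6 rose. Next in this order to isp7, mss51 and mal2 stood at -0.13 and 0 in that culture, and next to amt2, ssc1 and mdv1 both stood at 0. Next to amt3, ams1 and cao1 stood at 0.39 and 0.54, and next to psp3, hsf1 and asa1 at 0.12 and -0.24. Of the genes around amt1, tpx1 stood at 0 and wtf21, a gene below the brightness limit whose family has near-identical copies, at 1.19. None of these 12 neighbours rose or fell by the size rule in any comparison. Among all features at the brightness limit, at most 2.3% rose and at most 0.471% fell in a comparison. A count of 0 of 12 lies near those shares.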

How the data were processed

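Per the labels' protocols, RNA from acid-phenol extraction was purified on RNeasy columns, and biotin was incorporated with the 3' IVT Express kit, which reads transcripts near their 3' ends. The deposited log2 values came from RMA (affy package, no versions), per the submitters' processing notes. RMA corrects background, quantile-normalizes the arrays and summarizes probe sets by median polish, which can return identical values, so differences of exactly 0 occur. The log base was taken as 2 from the range of values, and the genome build is not given in the sources used here. Of 4999 probe sets, 2917 had 1 name in the platform annotation, which can be old, and 20 had several and stayed unnamed. Symbols were updated by gene number through a table of assembly ASM294v3 (2914 matched), whose positions served for the order of genes and are not given. Probe sets of 1 gene were averaged, giving 4981 features.

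Differences were computed in Python 3.11.15 with numpy 2.4.6, pandas 2.3.3 and statsmodels 0.14.6, the last for a lowess trend (fraction 0.3, 3 iterations). Code for the 2-fold rule was checked on simulated arrays. The set of genes, the 10 lists and the size rule were chosen with earlier results of these data known. Named were all members of the set, all list genes that passed the size rule, up to 3 further bright genes of each list with the largest differences, and the 3 closest patterns. The genes gaf1, tor2 and tsc2 were named after their values were seen. So were the dim genes isp3, isp5, inv1, fbp1, mam2, mfm1, rep1, ste4, ste6, tms1, zym1, sxa2, map1, map2 and map3. Alternatives were other brightness limits and folds, repeated quantile normalization, trend removal, median centring, and the brightest probe set of a gene.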

Additional observations from a re-analysis of the deposited data

How the results depend on the processing

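No difference has a replicate check, and readings below the brightness limit, as those of amt3, are limited by signal over background. No paired analysis was possible because each group has 1 array, and for the same reason no array could be left out. Only repeated quantile normalization, trend removal and median centring could change a difference of the set, since the other alternatives left its values as they were. Under these, all 6 genes kept the direction of their differences in the 3 comparisons. The difference of amt2 between the adapted culture and wild type came closest to none, at 0.0057 with arrays centred on their medians. The 1 gene that rose in the deletion culture, isp6, became 3 genes at 1.5-fold, 0 at 3-fold and 0 with arrays centred on their medians. In the adapted culture, 0 against wild type became 1 at 1.5-fold.

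Over all features, the 82 that rose in the deletion culture became 148 without a brightness limit, 197 at 1.5-fold and 36 at 3-fold, and the 3 that fell became 22 at 1.5-fold. For the adapted culture against wild type, the 53 that rose became 124 without a limit, 130 at 1.5-fold and 23 at 3-fold, while 8 fell, as did 15 at 1.5-fold and 2 at 3-fold. For the adapted against the unadapted deletion culture, the 7 that rose became 18 without a limit, 4 when the limit was set at the 50th percentile, 24 at 1.5-fold and 2 at 3-fold, and the 17 that fell became 28 without a limit, 55 at 1.5-fold and 3 at 3-fold. Fewer or more features pass a stricter or looser fold threshold or brightness limit by construction. The cause of changes under the renormalizations, as that of isp6 with arrays centred on their medians, was not tested. Of 264 medians of the lists and the set under these alternatives, 10 changed sign or moved to or from 0. The medians under another brightness limit or fold are among the 264 but could not move, as neither setting enters a median. Counts of listed genes that rose or fell moved by over 1.5 times, or to or from 0, in 34 cases. Among these, the 1 gene of the nitrogen starvation targets that rose in the deletion culture, mmf2, became 0 with the limit at the 50th percentile.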
